A study of Mus musculus with 83 samples.

Results

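The heat shock chaperones described here are 10 of the 37764 genes in the colon count table: the stress-inducible HSP70 genes Hspa1a and Hspa1b, the constitutive HSP70 gene Hspa8, the HSP110 gene Hsph1, the cytosolic HSP90 gene Hsp90aa1, the J-domain genes Dnaja1 and Dnajb1, the small heat shock protein gene Hspb1, and the mitochondrial chaperonin genes Hspd1 and Hspe1. They were chosen by the fold changes against the 3-month mice in an earlier analysis of the same counts, where Hspa1a was among the strongest falls, so values of that contrast are given here as a description. The counts came from polyA RNA of the colon of 83 male C57BL/6J/Ukj mice, with 1 library per mouse. There were 16 mice of each of the ages 3, 9 and 15 months, 17 mice aged 24 months and 18 aged 28 months. The labels name no treatment and describe mice kept for ageing only. Each mouse was sampled at 1 age, and the RNA came from the proximal section of the snap-frozen colon by the study's methods. Every age was spread over the 3 library batches, with 4 to 7 mice in each.

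Chaperones of the HSP70 family bind unfolded stretches of other proteins and release them in a cycle driven by ATP. J-domain proteins such as Dnaja1 and Dnajb1 deliver clients and start ATP hydrolysis, HSP110 proteins such as Hsph1 exchange the nucleotide, and HSP90 takes over late folding steps of kinases and receptors. Heat shock factor 1 (Hsf1) drives many of these genes under proteotoxic stress by binding repeats of the unit nGAAn in their promoters, and small heat shock proteins such as Hspb1 hold unfolded proteins and are abundant in muscle. Hspd1 and Hspe1 form the folding chamber of the mitochondrial matrix.

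The sequences before the start sites of 8 of the 10 genes were found in RefSeq (GRCm38.p6), and Hspa8 and Hsp90aa1 were not matched. The 250 bases before the start were searched on both strands for adjoining inverted units, written GAANNTTC or TTCNNGAA, where each of these reads the same on the other strand. Of these 8 genes, 7 held such a pair before at least 1 start site, and Dnajb1 held none. Counted by window, since a gene can have several start sites, 8 of their 13 windows held a pair, against 12.8% of all 32851 promoter windows of the same length. These windows are not all separate: the 2 of Hsph1 hold the same pair, and those of Hspa1a and Hspa1b are near-identical. A run of at least 3 units, GAANNTTCNNGAA or TTCNNGAANNTTC, was found in 0.466% of all windows and at Hspd1 and Hspe1, which are transcribed in opposite directions and share a run of 4 units. A match is a description of the letters in a window and does not show binding. The windows of the HSP70 copies, the HSP110 gene, the shared mitochondrial promoter and the small heat shock protein gene are shown because their transcripts behave differently below, with matched letters in capitals:
Hspa1a, chr17:34972157-34972406, minus strand: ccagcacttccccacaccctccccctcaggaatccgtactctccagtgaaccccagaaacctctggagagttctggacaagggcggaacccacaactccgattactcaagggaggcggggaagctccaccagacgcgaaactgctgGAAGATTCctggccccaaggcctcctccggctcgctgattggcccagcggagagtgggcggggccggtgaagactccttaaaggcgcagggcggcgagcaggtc
Hspa1b, chr17:34959239-34959488, minus strand: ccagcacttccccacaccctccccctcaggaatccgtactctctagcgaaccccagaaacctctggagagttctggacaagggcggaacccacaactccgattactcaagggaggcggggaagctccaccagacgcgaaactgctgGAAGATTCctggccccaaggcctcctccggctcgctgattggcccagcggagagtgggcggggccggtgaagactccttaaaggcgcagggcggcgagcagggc
Hsph1, first start site, chr5:149636337-149636586, minus strand: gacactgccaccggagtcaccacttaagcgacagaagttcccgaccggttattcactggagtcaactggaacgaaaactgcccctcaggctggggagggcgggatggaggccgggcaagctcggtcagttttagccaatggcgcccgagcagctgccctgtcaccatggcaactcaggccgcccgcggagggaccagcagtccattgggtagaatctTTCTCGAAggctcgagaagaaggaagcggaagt
Hspe1, chr1:55087898-55088147, plus strand: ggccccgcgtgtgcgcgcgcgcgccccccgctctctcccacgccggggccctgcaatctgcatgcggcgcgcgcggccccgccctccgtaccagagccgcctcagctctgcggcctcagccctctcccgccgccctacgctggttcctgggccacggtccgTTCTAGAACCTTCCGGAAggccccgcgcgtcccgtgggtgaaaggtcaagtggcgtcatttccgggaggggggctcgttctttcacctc
Hspb1, chr5:135887669-135887918, plus strand: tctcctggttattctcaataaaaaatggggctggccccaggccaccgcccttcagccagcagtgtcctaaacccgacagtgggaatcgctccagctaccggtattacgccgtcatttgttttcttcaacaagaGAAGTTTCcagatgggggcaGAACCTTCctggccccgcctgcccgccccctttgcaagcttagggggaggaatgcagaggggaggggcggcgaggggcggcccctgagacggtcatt

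The Hspa1a and Hspa1b windows were identical at 247 of 250 bases, and the pair began 104 bases before both starts. At Hsph1 it began 33 bases before the first start, at Hspb1 117 and 97 bases, and at Hspe1 the run began 89 bases before the start. The genes themselves lie side by side, Hspa1a at chr17:34969190-34972156 and Hspa1b at chr17:34956436-34959238 in the GRCm38 annotation. As near-identical copies they can share reads, so the division of read pairs between their rows is uncertain. The ratio of Hspa1a to Hspa1b CPM stayed between 0.266 and 0.527 in the 83 mice, with a median of 0.399.

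The gene counts of a mouse summed to between 23026370 and 75838290 read pairs. The colon markers were expressed in every mouse, among them the intestinal transcription factor Cdx2 (lowest 245 CPM) and the goblet cell mucin Muc2 (lowest 8667 CPM), while Alb of liver reached at most 2.89 CPM and Ins2, Myh6, Defa24 and Lct stayed below 1 CPM in all mice. CPM relate the count of a gene to the TMM-normalized size of its library. Apart from 5 mice of 3 months described below, 2 libraries stood apart, above 5% of counts from mitochondrial genes, a limit set after the values were seen. A 15-month mouse (replicate 16, batch 3) had a mitochondrial share of 5.86%, the highest of the 83 mice, and their lowest epithelium score (10.01, mean log2 CPM of 6 genes). It was the lowest mouse of its age for all members but Hspe1, with 34.8 CPM of Hsph1 where the next had 45.2, and 214 CPM of Hspd1 where the next had 286. A 28-month mouse (replicate 13, batch 1) had a share of 5.75% and the lowest immediate early score of the 83 (4.25, mean log2 CPM of 10 genes such as Fos), and was the highest of its age for all members but Hspb1 and Hspe1. Results that rest on these libraries are given with and without them.

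Per unit of transcript length, the constitutive Hspa8 was highest and the inducible Hspa1a and Hspa1b were lowest. Hspa8 had a median of 742 TPM over the 83 mice (range 574 to 2516), followed by Hspd1 at 338, Hsp90aa1 at 182, Hspe1 at 125 and Hspb1 at 93.2. Dnajb1 (50.9), Dnaja1 (39.5) and Hsph1 (22.4) were lower, above Hspa1b (16.7) and Hspa1a (6.60). The lowest of these genes also varied most, since Hspa1b ranged from 6.34 to 397 TPM and Hspa1a from 2.96 to 196. Between mice of 1 age, from 9 to 28 months, the SD of log2 CPM was 0.75 for Hspa1b, 0.62 for Hspa1a and 0.54 for Hsph1, against 0.24 for Hspa8, 0.16 for Hspe1 and a median of 0.20 over 18325 genes.

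Hspa1a was far higher in 5 mice of 3 months than in any other mouse. Its lowest, median and highest values were 4.99, 8.32 and 186 CPM at 3 months, 4.13, 6.51 and 20.3 at 9 months, 3.06, 7.58 and 21.9 at 15 months, 4.08, 5.28 and 14.1 at 24 months, and 2.96, 4.68 and 16.0 at 28 months (n = 16, 16, 16, 17 and 18). The medians therefore ran in the order 3, 15, 9, 24 and 28 months, and the ranges of all ages overlapped. In the fit of all mice with age and library batch, the log2 fold change of 9 against 3 months was -2.32 ± 0.37 (SE), the seventh lowest of 18325 genes, and those of 15, 24 and 28 against 3 months were -2.06, -2.60 and -2.86. These values chose the gene and were not tested. The mean CPM at 3 months was 4.95 times that at 9 months, but the median only 1.28 times. In bulk tissue, fewer cells of a type and less RNA per cell cannot be told apart.

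The 5 mice above 40 CPM, a limit set after the values were seen, carried this difference. They had 186, 123, 106, 75.0 and 43.3 CPM of Hspa1a, came from all 3 library batches (1, 2 and 2 mice) and were followed by a gap down to 11.9 CPM in the other 11 mice of that age. No mouse of 9 to 28 months was above 21.9 CPM. Without the 5 mice the log2 fold change of 9 against 3 months was -0.02 ± 0.23 (SE). Leaving out mice by high Hspa1a at 3 months only draws this value toward 0 by construction, so it is a description. With Hspa1a and Hspa1b summed to 1 row over all mice the log2 fold change was -2.19. Within the batches the mean log2 CPM differed by -0.82, -1.39 and -1.64. Above 12 CPM, another limit set after the values were seen, were 5 of 16 mice at 3 months, 3 of 16 at 9 months, 4 of 16 at 15 months, 2 of 17 at 24 months and 1 of 18 at 28 months.

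**Figure D1:**
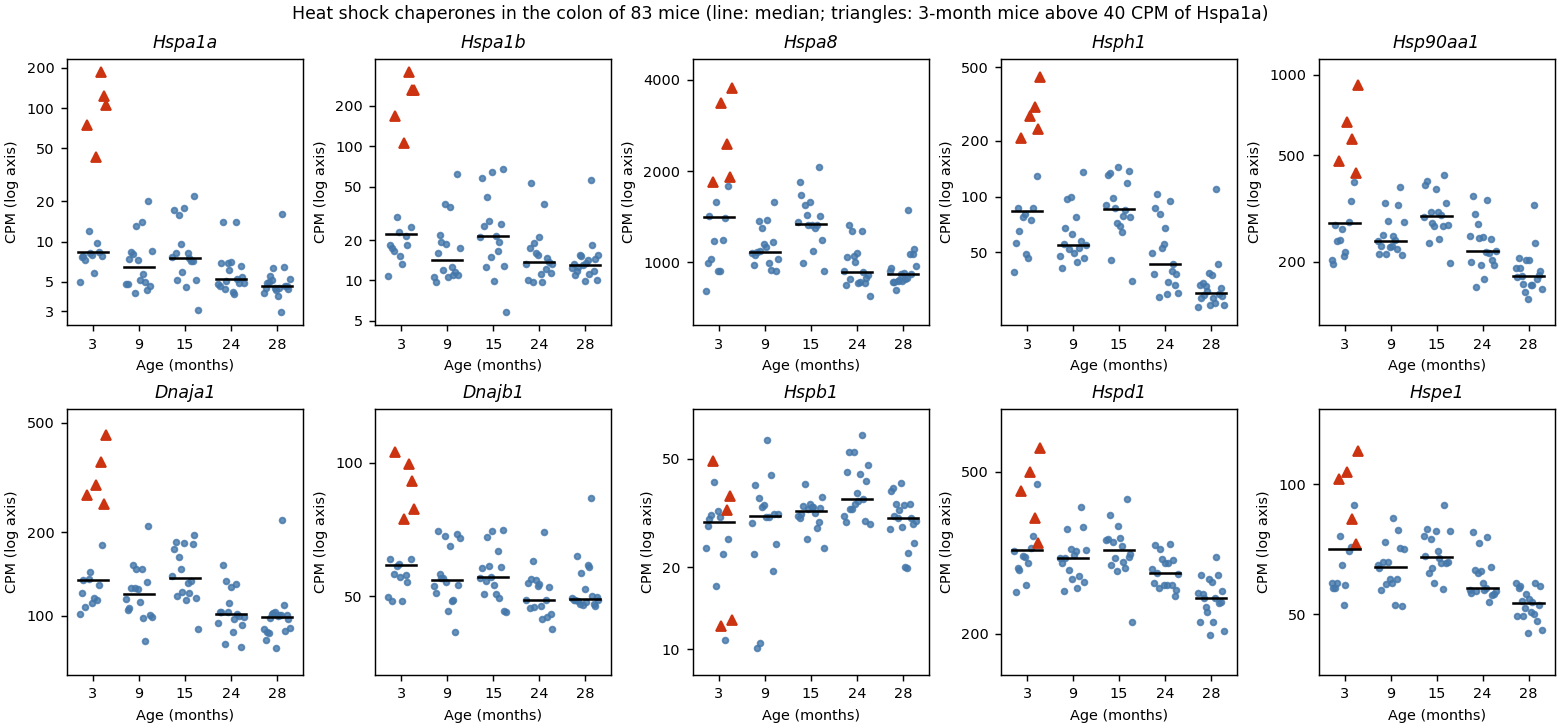
CPM of each of the 10 chaperone genes (log axis, 1 panel per gene) in each mouse by age in months; dots and triangles are single mice, lines are medians of an age, and triangles mark the 5 mice of 3 months above 40 CPM of Hspa1a. The triangles lie above every other mouse for Hspa1a, Hspa1b, Hsph1, Hsp90aa1 and Dnaja1, and run from 12.2 to 49.1 CPM for Hspb1.

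The same mice were high for most of the other members. In the order given for Hspa1a, they had 356, 261, 262, 168 and 106 CPM of Hspa1b, and no mouse of 9 to 28 months was above 67.8. Hsph1 reached 305, 233, 444, 208 and 274 CPM in them, with at most 144 in the mice of 9 to 28 months. They were also the 5 highest of the 83 mice for Hsp90aa1 (430.1 to 916 CPM) and Dnaja1 (254 to 449.7 CPM). For Hspa8 and Dnajb1, 4 of them were among the 5 highest, and for Hspd1 and Hspe1, 3 of them. Hspb1 did not follow, with 32.4, 36.5, 12.8, 49.1 and 12.2 CPM, beside a range of 10.8 to 41.1 CPM in the other 11 mice of that age. The pair of batch 3 mice with the lowest Hspb1 also had smooth muscle scores (mean log2 CPM of 7 smooth muscle genes) of 6.14 and 6.25, against 8.34 to 8.86 in the other 3. The clock score of the 5 mice (mean log2 CPM of 8 clock output genes minus that of 3 activators), from -2.36 to -1.80, lay within the range of all 3-month mice, from -2.81 to -1.50. Of the 5, 3 had the highest immediate early scores of the 16 mice of that age (5.11, 4.94 and 4.87, with 4.75 next). The mice with 186 and 123 CPM of Hspa1a had scores of 4.56 and 4.40, the latter the lowest of that age. The pair with little smooth muscle RNA had the highest epithelium scores (10.85 and 10.83). The part of these measures in the chaperone levels was not tested.

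The fitted log2 fold changes of 9 against 3 months of the other members were -2.13 for Hspa1b and -1.13 for Hsph1, against -0.60 for Dnaja1, -0.53 for Hspa8, -0.51 for Hsp90aa1, -0.24 for Dnajb1, -0.20 for Hspd1 and Hspe1, and 0.15 for Hspb1. Without the 5 mice, left out by their Hspa1a at 3 months, they lay between -0.15 for Hsph1 and 0.19 for Hspb1. These values, like those of Hspa1a, come from the contrast that chose the genes.

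Whether the members move together from mouse to mouse can be asked without the ages, by taking from each log2 CPM value the mean of its age and library batch. Over the 67 mice of 9 to 28 months, these residuals of Hspa1a correlated most with its near-identical copy Hspa1b (r = 0.96, rho = 0.88), and then with the partners of the HSP70 cycle, Dnaja1 (r = 0.81, rho = 0.70), Hsph1 (r = 0.80, rho = 0.71), Hspa8 (r = 0.70, rho = 0.60), Dnajb1 (r = 0.69, rho = 0.53) and Hsp90aa1 (r = 0.64, rho = 0.57). For each of these r the adjusted p was 2.67e-05 (two-sided permutation test within age and batch, 100000 resamples, Benjamini-Hochberg adjustment over 16 relations), from the smallest p the resamples can give, 1e-05. The adjusted permutation p for rho was at most 0.000213. Hspd1 followed more loosely (r = 0.46, rho = 0.41, adjusted permutation p = 0.00599 and 0.00645). Hspe1 (r = 0.32, rho = 0.32, adjusted permutation p = 0.0521 and 0.0272) and Hspb1 (r = 0.32, rho = 0.36, adjusted permutation p = 0.0277 and 0.00812) were weakest.

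The sizes varied between ages and between batches. Among the mice of 9, 15, 24 or 28 months alone, r with Hspa1a ran from 0.81 to 0.86 for Dnaja1, from 0.80 to 0.86 for Hsph1, from 0.55 to 0.87 for Hspa8 and from 0.56 to 0.80 for Hsp90aa1, but from 0.34 to 0.82 for Dnajb1 and from -0.01 to 0.65 for Hspb1. Within the 3 batches they ran from 0.66 to 0.91 for Dnaja1, from 0.68 to 0.92 for Hsph1 and from 0.33 to 0.89 for Hsp90aa1. With the 2 mice farthest from the median left out of the 67, r was 0.76 for Dnaja1, 0.75 for Hsph1, 0.62 for Hspa8 and 0.56 for Hsp90aa1. Leaving out the 15 mice above 12 CPM narrows the range of Hspa1a and so lowers r by construction. Over the other 68 mice, which include 11 of 3 months, r was 0.85 for Hspa1b, 0.60 for Hsph1, 0.53 for Dnaja1, 0.44 for Hspa8, 0.43 for Hsp90aa1 and 0.26 for Dnajb1. Within single ages of these mice, from 9 to 28 months, the lowest r was 0.57 for Hspa1b, 0.35 for Hsph1, 0.25 for Dnaja1, 0.23 for Hsp90aa1, 0.15 for Hspd1, 0.06 for Hspb1, 0.05 for Hspa8, -0.02 for Hspe1 and -0.28 for Dnajb1.

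Without the 2 libraries of high mitochondrial share, over 65 mice, r with Hspa1a was 0.77 for Dnaja1, 0.75 for Hsph1, 0.62 for Hspa8 and Dnajb1 and 0.56 for Hsp90aa1. It fell to 0.30 for Hspd1 (rho = 0.33, adjusted permutation p = 0.0696 and 0.0221) and was 0.39 for Hspe1 (rho = 0.38, adjusted permutation p = 0.0213 and 0.0102) and 0.35 for Hspb1 (rho = 0.40, adjusted permutation p = 0.0152 and 0.00402).

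**Figure D2:**
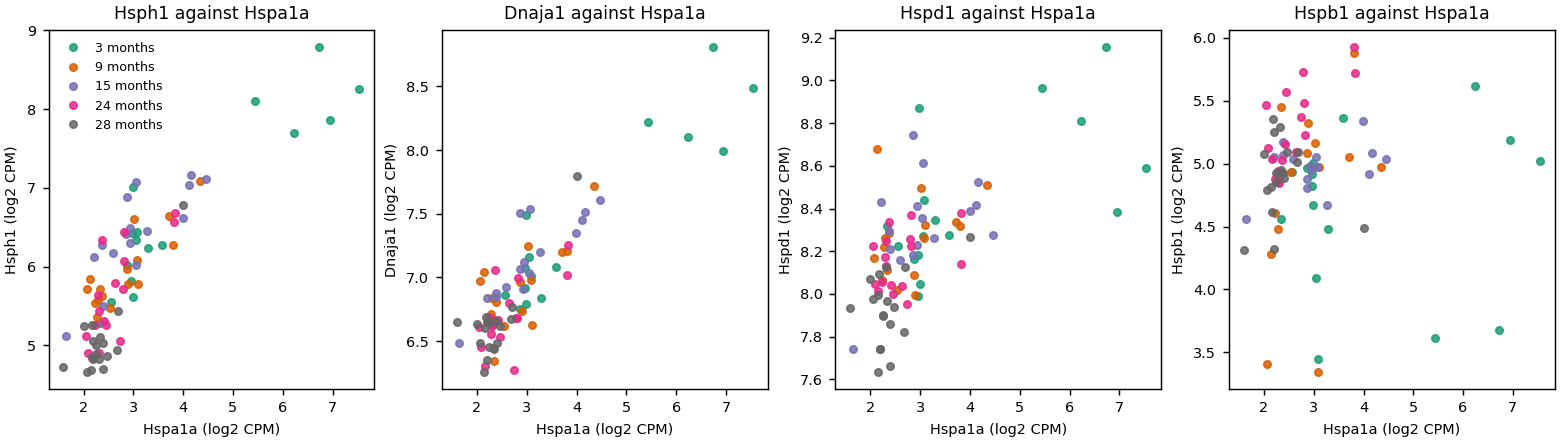
Log2 CPM of Hsph1, Dnaja1, Hspd1 and Hspb1 (y axes) against log2 CPM of Hspa1a (x axes) in 83 mice, 1 point per mouse, coloured by age. Hsph1 and Dnaja1 rise with Hspa1a within every age, while Hspb1 shows no such trend over all mice, and 5 mice of 3 months stand apart on the right.

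None of the measures of immediate early genes, library depth, epithelium or immune cells passed the threshold of 0.1 with Hspa1a over the 67 mice, with r between -0.11 and 0.13 and rho up to 0.23 (adjusted permutation p for r from 0.431 to 0.54, for rho from 0.128 to 0.844). The mitochondrial share of the counts (r = -0.23, rho = -0.37, adjusted permutation p = 0.265 and 0.0105) passed for rho only, with r = -0.45 without the 2 mice farthest from the median and from -0.82 to 0.40 within the 3 batches. The clock score (r = -0.21, rho = -0.36, adjusted permutation p = 0.117 and 0.00718) also passed for rho alone. The smooth muscle score passed for both (r = 0.23, rho = 0.29, adjusted permutation p = 0.0948 and 0.026). Some of these calls changed without the 2 libraries of high mitochondrial share. The mitochondrial share (r = -0.43, rho = -0.45, adjusted permutation p = 0.00702 and 0.00242), the immediate early score (r = 0.29, rho = 0.36, adjusted permutation p = 0.0981 and 0.0148), the immune cell score (r = 0.26, rho = 0.33, adjusted permutation p = 0.0385 and 0.0142) and the clock score (r = -0.22, rho = -0.36, adjusted permutation p = 0.0272 and 0.00622) then passed for both measures, and the smooth muscle score still did (r = 0.24, rho = 0.31, adjusted permutation p = 0.0725 and 0.0148). Of these, the clock and smooth muscle r moved little. Epithelium and library depth did not, with r of -0.10 and -0.03 (adjusted permutation p for r = 0.581 and 0.802, for rho = 0.815 and 0.593).

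Of all 45 pairs of members, 37 passed the threshold over the 67 mice (Benjamini-Hochberg over the 45 pairs, relations added after the data were seen). The share of all gene pairs past such a threshold is not given, so this count has no background. The strongest pairs apart from the HSP70 copies were Hsph1 with Dnaja1 (r = 0.89, rho = 0.85), Hspa1b with Dnaja1 (r = 0.88, rho = 0.85) and Hsph1 with Hspa8 (r = 0.88, rho = 0.82), each with an adjusted permutation p for r of 1.96e-05. These r were 0.86, 0.87 and 0.85 without the 2 libraries of high mitochondrial share. Hspd1 moved with Hsp90aa1 (r = 0.85, rho = 0.87, from 0.84 to 0.93 within the 4 ages) and with its own partner Hspe1 (r = 0.69, rho = 0.77, from 0.51 to 0.86 within the 4 ages and from 0.40 to 0.91 within the 3 batches). Without the 2 mice farthest from the median of Hsp90aa1 or Hspd1, these r were 0.82 and 0.83, and without the 2 libraries of high mitochondrial share 0.83 and 0.88, so their order changed. Of the 8 pairs that did not pass, 7 held Hspb1 and the other was Dnajb1 with Hspe1.

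**Figure D3:**
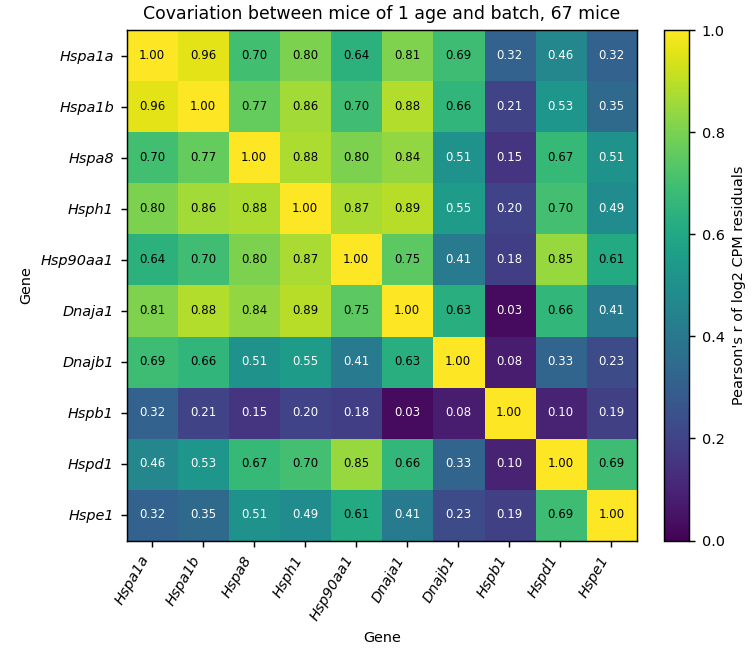
Pearson's r between log2 CPM residuals, after removal of the mean of each age and library batch, for all pairs of the 10 genes over the 67 mice of 9 to 28 months (colour scale from 0 to 1, values printed). Hspa1a, Hspa1b, Hspa8, Hsph1, Hsp90aa1 and Dnaja1 form a block between 0.64 and 0.96, and the row of Hspb1 lies between 0.03 and 0.32.

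The genes most like Hspa1a were sought among the other 18324 tested genes by the same residuals over the 83 mice. The 10 nearest were Hspa1b (r = 0.98), Ahsa2 (0.90), Dnaja1 (0.89), Hsph1 (0.87), Chordc1 (0.84), Dnajb1 (0.83), Bag3 (0.81), Dnaja4 (0.81), Hspa8 (0.80) and Dnajb2 (0.80). Ahsa2 and Chordc1 encode HSP90 co-chaperones, Bag3 a nucleotide exchange factor of HSP70, and Dnaja4 and Dnajb2 J-domain proteins. Without the 5 high mice of 3 months, 6 of these 10 remained among the 10 nearest, which were then the same 10 genes as over the 67 mice. Over the 67 mice the 10 nearest were Hspa1b, Dnaja1, Hsph1, Ahsa2 (0.78), Banp (0.78), Chordc1 (0.76), Dnajb2 (0.73), Sec14l1 (0.72), Ywhag (0.71) and P4ha1 (0.71), of which Banp, Sec14l1, Ywhag and P4ha1 are in none of the chaperone lists. Bag3 (0.70), Hspa8 (0.70), Dnajb1 (0.69) and Dnaja4 (0.67) then ranked 11, 12, 15 and 18. Without the 2 libraries of high mitochondrial share, 9 of the 10 nearest over the 67 mice remained, and Bag3 (0.73) took the place of Dnajb2.

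Comparisons among the later ages use no difference from the 3-month mice, but the later ages entered the choice of genes through their fold changes against 3 months, so these tests are not independent of it. Most members were lower late in life. Along age from 9 to 28 months, 9 of 10 members fell and none rose (edgeR's quasi-likelihood test, adjusted p below 0.1, 67 mice), where 21.8% of 18167 tested genes fell and 24.4% rose. The median slope of the members was -0.20 per 10 months on the log2 scale, and that of all genes 0.01. Hsph1 had the steepest slope (-0.52 ± 0.11 SE, adjusted p = 6.74e-05), followed by Hspa1a (-0.34 ± 0.11, adjusted p = 0.00839), Hspa1b (-0.28 ± 0.14, adjusted p = 0.0884) and Hsp90aa1 (-0.26 ± 0.05, adjusted p = 6.92e-05). Hspa8 and Dnaja1 (both -0.20 ± 0.05), Hspd1 (-0.17 ± 0.03), Hspe1 (-0.16 ± 0.03) and Dnajb1 (-0.06 ± 0.03, adjusted p = 0.077) fell by less. Hspb1 had a slope of 0.08 ± 0.07 (adjusted p = 0.367). Within each of the 3 batches all of these 9 slopes were negative. Without the 2 libraries of high mitochondrial share, 9 members again fell, where 23.7% of all genes fell and 25.5% rose, with slopes of -0.59 ± 0.10 for Hsph1 (adjusted p = 4.74e-06), -0.41 ± 0.10 for Hspa1a (adjusted p = 0.00115) and -0.38 ± 0.13 for Hspa1b (adjusted p = 0.0156).

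Hsph1 shows the course. Its lowest, median and highest CPM were 38.9, 83.5 and 444 at 3 months, 41.1, 54.9 and 136 at 9 months, 34.8, 86.0 and 144 at 15 months, 28.5, 43.4 and 103 at 24 months, and 25.1, 30.2 and 110.1 at 28 months. Of the 18 oldest mice, 17 lay below the median of the 24-month mice and 14 below every 15-month mouse, while 1 mouse at 110.1 CPM lay above all 24-month mice. That mouse is the 28-month library of high mitochondrial share, which also had 223 CPM of Dnaja1, 1487 of Hspa8 and 16.0 of Hspa1a. The lowest 15-month mouse is the other such library. Without both, all 17 mice of 28 months lay below every 15-month mouse for 3 of 10 members (Hsph1, Dnaja1 and Hspd1), as did 0.355% of 18325 tested genes, while 0.18% had all of them above. For Hsp90aa1 16 mice lay below, for Hspa8 14, for Hspe1 12, for Hspa1a 8, for Hspb1 3, and for Hspa1b and Dnajb1 0. The 2 libraries were chosen with the values known, so these counts are a description.

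Hsp90aa1 had medians of 278, 240.1, 297, 219 and 177 CPM from 3 to 28 months, within ranges of 197 to 916, 212 to 382, 198 to 420.3, 161 to 353 and 145 to 325. Hspa8 had medians of 1413, 1082, 1342, 932 and 914 CPM and ranges of 806 to 3742, 936 to 1582, 937 to 2055, 776 to 1332 and 812 to 1487. Of the 18 oldest mice, 16 lay below the lowest 9-month mouse for Hsp90aa1 and 12 for Hspa8. Dnaja1, the J-domain gene that moved with Hspa1a most, had medians of 135, 119.7, 136, 101 and 98.6 CPM, and Dnajb1 of 58.9, 54.4, 55.1, 49.0 and 49.4 CPM, with all ranges overlapping.

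From 9 to 15 months no member was called by edgeR's quasi-likelihood test, with 1 at an unadjusted p below 0.05 and 0 called by DESeq2, where 0.251% of 18325 genes rose and 0.180% fell. The fitted values lay above 0 for all 10 members, from 0.01 ± 0.08 (SE) for Dnajb1 to 0.48 ± 0.25 for Hsph1. Between 9 and 24 months 0 members fell and only Hspb1 rose (0.39 ± 0.15, adjusted p = 0.0864), against 6.55% and 8.93% of all genes. The other 9 lay between -0.29 and -0.08.

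From 15 to 24 months 5 of 10 members fell, where 7.24% of all genes fell and 6.28% rose: Hsph1 (-0.77 ± 0.25 SE, adjusted p = 0.0381), Hspa8 (-0.51 ± 0.13, adjusted p = 0.00688), Dnaja1 (-0.45 ± 0.15, adjusted p = 0.0474), Hsp90aa1 (-0.36 ± 0.14, adjusted p = 0.0879) and Hspe1 (-0.19 ± 0.07, adjusted p = 0.0951). Hspa1a and Hspa1b had -0.54 ± 0.36 and -0.64 ± 0.38 (adjusted p = 0.361 and 0.301). Without the 2 libraries of high mitochondrial share Hspe1 did not pass (-0.18 ± 0.08, adjusted p = 0.129) and Hspd1 did (-0.22 ± 0.07, adjusted p = 0.0357). All 17 mice of 24 months lay below the 15-month median for Hspa8, and 15 of 17 for Hspa1a.

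The widest difference was that between 15 and 28 months, with 8 of 10 members lower and none higher, where 22.2% of all genes fell and 20.2% rose. The log2 fold change was -1.36 ± 0.24 (SE) for Hsph1 (adjusted p = 8.25e-06), -0.82 ± 0.38 for Hspa1b, -0.80 ± 0.36 for Hspa1a, -0.69 ± 0.14 for Hsp90aa1, -0.55 ± 0.13 for Hspa8 and -0.49 ± 0.15 for Dnaja1. Hspd1 and Hspe1 both had -0.40 ± 0.07 (adjusted p = 1.48e-05 and 1.31e-05). Hspb1 (-0.06 ± 0.15) and Dnajb1 (-0.10 ± 0.08) did not pass the test. The same count of 8 was lower without the 2 libraries of high mitochondrial share, where 21.7% of all genes fell, with -1.59 ± 0.24 for Hsph1, -1.09 ± 0.38 for Hspa1b and -0.999 ± 0.36 for Hspa1a.

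Against 9 months, 4 members were lower at 28 months, where 20.0% of all genes fell and 20.0% rose: Hsph1 (-0.88 ± 0.24 SE), Hsp90aa1 (-0.45 ± 0.14), Hspd1 (-0.33 ± 0.07) and Hspe1 (-0.29 ± 0.07), with adjusted p between 0.000286 and 0.00694. Hspa1a had -0.54 ± 0.36 (adjusted p = 0.247). Between 24 and 28 months 3 members fell and 0 rose, where 6.01% of all genes fell and 5.66% rose: Hspb1 (-0.38 ± 0.15, adjusted p = 0.0927), Hspd1 (-0.21 ± 0.07, adjusted p = 0.0583) and Hspe1 (-0.21 ± 0.07, adjusted p = 0.0628). Without the 2 libraries of high mitochondrial share, 6 members were lower at 28 than at 9 months, where 20.3% of all genes fell, now with Hspa8 (-0.30, adjusted p = 0.05) and Dnaja1 (-0.38, adjusted p = 0.0206). Between 24 and 28 months 4 then fell, where 6.11% of all genes fell, with Hsph1 (-0.76, adjusted p = 0.0232) and Hsp90aa1 (-0.39, adjusted p = 0.0481) added and Hspb1 lost (-0.35, adjusted p = 0.128).

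**Figure D4:**
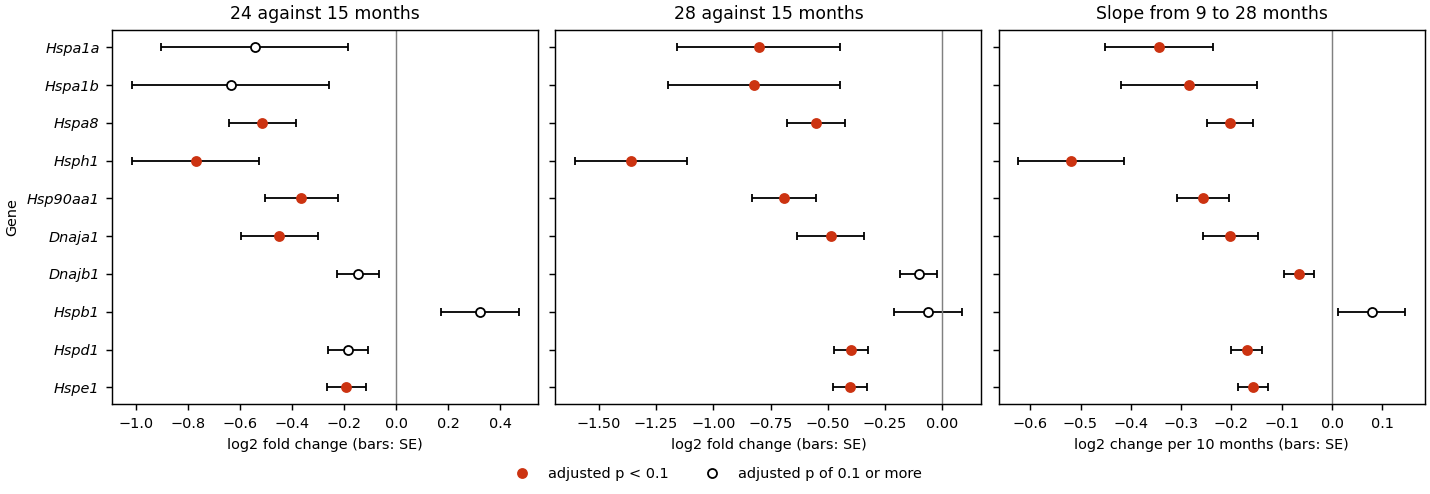
Fitted log2 fold change of 24 against 15 months and of 28 against 15 months, and log2 change per 10 months from 9 to 28 months, for the 10 genes (x axes; bars are SE; filled points have an adjusted p below 0.1, open points do not). Hsph1 lies farthest to the left in all 3 panels, from -1.36 to -0.52, and Hspb1 lies right of 0 in the first and the last.

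The 5 high mice of 3 months enter the shared estimate of the spread. Without them 8 members were lower at 24 than at 15 months, where 7.78% of all genes in that fit fell. At 28 months 7 members were lower than at 9 months (20.8% of all genes), 5 than at 24 months (6.16%) and 8 than at 15 months (20.5%). At 24 against 9 months 1 fell (9.02%) and 1 rose (9.06%). The oldest mice also differed in time-of-day genes: the clock score had a median of -0.58 at 28 months (range -2.84 to 1.38), against -2.56 to -2.32 for the medians of the other ages. With this score as a covariate, an alternative added after the data were seen, 7 members fell and Hspb1 rose along age, where 18.9% of all genes fell and 19.5% rose. At 28 months 6 were then lower than at 15 months (13% of all genes) and 0 than at 24 months (0.00546%). The slope of Hspa1a was then -0.26 (adjusted p = 0.104) and that of Hspb1 0.19 (adjusted p = 0.0255), while the slope of Hsph1 was -0.39 (adjusted p = 0.00673).

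Hspb1 moved with the smooth muscle genes. Its lowest, median and highest CPM were 10.8, 29.2 and 49.1 at 3 months, 10.1, 30.9 and 58.7 at 9 months, 23.5, 32.1 and 40.4 at 15 months, 28.7, 35.6 and 61.0 at 24 months, and 19.8, 30.3 and 40.8 at 28 months. The low values lay in mice with little smooth muscle RNA: the smooth muscle score, whose genes include Myh11, Actg2 and Des, fell to 6.14 at 3 months and 6.76 at 9 months, but not below 7.77 in any older mouse. At 24 and 28 months r between the residuals of Hspb1 and the score was 0.83 and 0.87, and at 15 months 0.60, or 0.24 without the library of high mitochondrial share. Over the 67 mice r was 0.90 and rho 0.85 (adjusted permutation p = 0.000233 and 0.00035, Benjamini-Hochberg over 70 relations of members with scores, added after the data were seen), and 0.83 without the 2 farthest mice. Within the 3 batches r was 0.96, 0.64 and 0.90. Hspb1 also moved against the mitochondrial share of the counts (r = -0.49, rho = -0.60, adjusted permutation p = 0.000233 and 0.00035).

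With the smooth muscle and epithelium scores as covariates, the log2 fold change of Hspb1 at 9 against 3 months went from 0.15 to -0.09. With both scores removed from the log2 CPM of the 67 mice, Hspb1 did not pass with Hspa1a (r = 0.23, rho = 0.18, adjusted permutation p = 0.143 and 0.196 over 14 relations). Over all 83 mice, which hold the 5 high mice, r was 0.55 (rho = 0.45) with the scores removed and 0.17 (rho = 0.19) with them left in, given as a description.

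**Figure D5:**
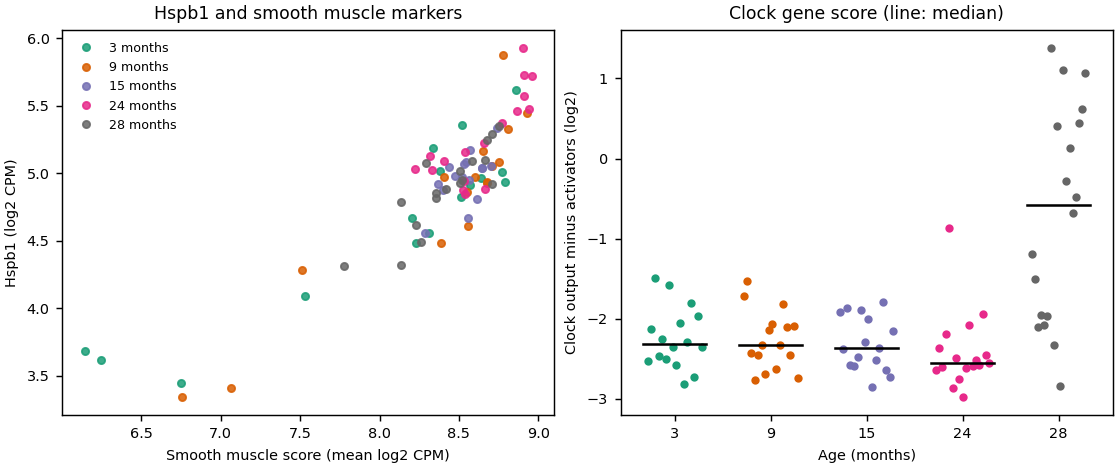
Left, log2 CPM of Hspb1 against the smooth muscle score (mean log2 CPM of 7 genes) in 83 mice, coloured by age; right, the clock score (8 output genes minus 3 activators, log2) by age in months, with the median as a line. Hspb1 falls with the smooth muscle score down to 6.14, and the clock score of the 28-month mice runs from -2.84 to 1.38, wider than at any other age.

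The mitochondrial pair changed late and by little. Hspd1 had lowest, median and highest values of 254, 322 and 572 CPM at 3 months, 255, 307 and 409 at 9 months, 214, 321 and 428 at 15 months, 248, 282 and 332 at 24 months, and 198, 245 and 308 at 28 months. Hspe1 had 52.5, 70.9 and 119.8 CPM at 3 months, 52.2, 64.5 and 83.4 at 9 months, 57.2, 67.8 and 89.8 at 15 months, 53.5, 57.4 and 77.7 at 24 months, and 45.3, 53.0 and 59.2 at 28 months. All 18 mice of 28 months lay below the 15-month median for both genes, and 13 lay below the lowest 15-month mouse for Hspe1, or 12 of 17 without the 2 libraries of high mitochondrial share. Hspd1 moved with the epithelium score over the 67 mice (r = 0.65, rho = 0.56, adjusted permutation p = 0.000233 and 0.00187). Within single ages this r ran from 0.09 at 28 months to 0.88 at 15 months, or 0.83 at 15 months without the library of high mitochondrial share, whose epithelium score is the lowest. Hspe1 passed with the score for rho alone (r = 0.28, rho = 0.38, adjusted permutation p = 0.306 and 0.0537). Its r was 0.50 without the 2 libraries of high mitochondrial share. Outside the pair, Hsp90aa1 passed for both (r = 0.36, rho = 0.37, adjusted permutation p = 0.0716 and 0.0537). The epithelium score had medians between 10.57 and 10.62 at all ages.

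Among 71 other genes of the chaperone network in 8 lists, 65 were tested. At 9 against 3 months 15 of them were lower and 3 higher, where 5.05% of all genes fell and 3.64% rose, but this is the contrast that chose Hspa1a and nothing is read from the count. Without the 5 high mice 0 were lower and 1 was higher, where 0.686% of all genes fell and 0.827% rose. These mice were left out by their Hspa1a, so falls of genes that moved with it shrink by construction. The log2 fold changes over all mice, given without a test, were -0.49 ± 0.13 (SE) for Chordc1, -0.39 ± 0.11 for Stip1, which links HSP70 to HSP90, -0.37 ± 0.10 for the HSP110 gene Hspa4l, -0.28 ± 0.07 for Dnaja4, -0.11 ± 0.04 for Hsf1 and 0.33 ± 0.08 for Hsf4.

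After 9 months the network genes fell more often than they rose in all comparisons but 15 against 9 and 24 against 9 months. From 15 to 24 months 16 of 65 fell and 2 rose, from 15 to 28 months 31 fell and 4 rose, from 9 to 28 months 21 fell and 5 rose, and along age 30 fell and 9 rose, beside the shares of all genes given above. Between 24 and 9 months 2 fell and 4 rose. With the clock score as a covariate 22 were lower at 28 than at 15 months (13% of all genes) and 28 fell along age (18.9%). The count of 8 lower at 28 than at 24 months became 0 (0.00546%).

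In the HSP90 group 9 of 12 genes were lower at 28 than at 15 months, a comparison in which 22.2% of all genes fell and 20.2% rose, with a median of -0.26 against -0.0029 over all genes. Stip1 (-0.58 ± 0.10 SE, adjusted p = 8.26e-06), Chordc1 (-0.55 ± 0.13, adjusted p = 0.000409), Fkbp4 (-0.42 ± 0.08, adjusted p = 1.11e-05) and Ahsa1, which stimulates the HSP90 ATPase (-0.41 ± 0.07, adjusted p = 2.31e-06), were furthest from 0. Of the genes of the TRiC chaperonin, which folds actin and tubulin, 6 of 8 fell in this comparison, the same share, by small amounts, such as Cct8 (-0.18 ± 0.05, adjusted p = 0.00114) and Cct3 (-0.18 ± 0.05, adjusted p = 0.00361). Of 10 other mitochondrial chaperones and proteases 4 fell, among them the J-domain gene Dnaja3 (-0.22 ± 0.03, adjusted p = 2.02e-07) and Grpel1, an exchange factor of the matrix (-0.16 ± 0.04, adjusted p = 0.000824). Among the 9 exchange factors and partners of HSP70, 4 fell, with St13 at -0.26 ± 0.06 (adjusted p = 0.000727) and Bag3 at -0.19 ± 0.07 (adjusted p = 0.0154).

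Other lists were mixed, in the same comparison where 22.2% of all genes fell and 20.2% rose. Of 8 other HSP70 and HSP110 genes, 4 fell and 2 rose from 15 to 28 months. The HSP110 gene Hspa4l (-0.47 ± 0.10 SE, adjusted p = 0.000102), Hspa13 (-0.35 ± 0.07, adjusted p = 3.40e-05) and Hspa4 (-0.30 ± 0.05, adjusted p = 7.81e-06) fell, while Hspa12a rose (0.21 ± 0.09, adjusted p = 0.0755). Along age 4 of the 8 rose and 4 fell, and Hspa2 rose by 0.21 ± 0.04 per 10 months (adjusted p = 1.65e-05). Of 5 tested small heat shock protein genes other than Hspb1, only Hspb7 was called at 28 against 15 months (0.34 ± 0.14, adjusted p = 0.0563), and it rose along age (0.24 ± 0.06 per 10 months, adjusted p = 0.000342). Of 9 tested J-domain genes, Dnaja4 (-0.21 ± 0.07, adjusted p = 0.019) and Dnajb2 (-0.20 ± 0.06, adjusted p = 0.0094) fell and Dnajb12 rose (0.16 ± 0.04, adjusted p = 0.00168) between 15 and 28 months, so the 2 of 9 that fell are near the share of all genes. Hsf1 was lower at 28 than at 15 months (-0.21 ± 0.04, adjusted p = 3.11e-06), as was Hsbp1, a gene for a heat shock factor binding protein (-0.20 ± 0.03, adjusted p = 1.47e-06).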

How the data were processed

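RNA of the proximal colon of 83 male mice of 5 ages was sequenced in 3 library batches. The authors deposited raw read counts per gene. By the study's methods and the submitters' processing notes, reads were trimmed with cutadapt 2.8, filtered with PrinSeq Lite, aligned to GRCm38.p6 with HISAT2 2.1.0, reduced to primary alignments with SAMtools 1.9, which the study describes as keeping reads that map to a single place, and counted by strand with featureCounts (Subread 2.0.1). Gene positions and exon lengths were taken from GENCODE M21, while the study counted on Ensembl 99. Promoters are those of RefSeq.

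Mice were grouped by the age in their labels. Genes were filtered by filterByExpr, and edgeR 4.0.16 (quasi-likelihood test, TMM) was fitted over all mice with age and library batch. Benjamini-Hochberg adjustment ran over all tested genes with a threshold of 0.1. The slope used the 67 mice of 9 to 28 months. Log2 CPM had a prior count of 2. TPM used exon lengths. Alternatives were DESeq2 1.42.0, other filters, normalizations, covariates and left-out mice. R 4.3.3 and Python 3.11.15 were used.

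The members and the gene lists were chosen with earlier results of these data known, and no member was tested against 3 months. Named were all 10 members, the 10 genes nearest to Hspa1a, and, of each list and comparison, up to 4 of the called genes with the largest change. Banp, Sec14l1, Ywhag and P4ha1 were named after their values were seen. The relations among members and with scores over the 67 mice, the covariate for the clock score and the left-out mice of high Hspa1a or of a high mitochondrial share were added after the data were seen. No 2 mice of an age agreed within sampling noise. Samples are single mice. Read pairs carry no molecular identifiers, so counting error is a lower limit of the error. On simulated counts the fit recovered 81 of 100 genes changed by 0.5 (log2) and 99 of 100 changed by 1 between 15 and 24 months, with 20 of 18259 genes called wrongly in that simulation.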

Additional observations from a re-analysis of the deposited data

How the results depend on the processing

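With alternatives changed one at a time, the number of members called stayed within 1.5 times the reported one for 15 against 9 months, 28 against 15 months and the slope. Between 15 and 24 months (5 members, 13.5% of all genes), 8 were called with only the ages compared in the fit (19.1%) or without the 5 high mice of 3 months (14.9%), and 3 without a filter on low counts (4.04%), with a replicate block (11.6%) or at an adjusted p below 0.05 (7.53%). Between 24 and 28 months (3 members, 11.7%), 5 were called with only those ages (11.5%), without the 5 mice (13.1%), or with smooth muscle and epithelium scores as covariates (15.5%), 1 without a filter (3.87%), and 0 with the clock score (0.0709%) or at 0.05 (7.11%). Between 9 and 28 months (4 members, 40% of all genes), 7 were called with only those ages (38.1%) or without the 5 mice (41.2%). Between 9 and 24 months (1 member, 15.5%), 2 were called without the 5 mice (18.1%) and 0 without a filter (6.05%) or at 0.05 (10.4%). The replicate block called 7 along the slope (42.5% of all genes), and 9 were called without it (46.2%). The replicate numbers share only a number: of 161 same-numbered pairs of mice, 31 correlated above 0.1 (median r 0.02). Of 2593 pairs with different numbers, 427 did (median r -0.002). For 9 against 3 months without the 5 mice, Hspa1a went from -2.32 to -0.0184, a shrinkage fixed by leaving out mice by their high Hspa1a. The other network genes called went from 18 to 1, as all genes called went from 8.69% to 1.51%. The direction turned for Hspa1b (0.0596), Dnajb1 (0.0329) and Hspe1 (0.00166). The direction also turned for Hspb1 at 28 against 15 months with the clock score (0.155), at 28 against 9 months with only those ages (-0.000247) and at 9 against 3 months with the muscle and epithelium scores (-0.0917), and for Hspa1b at 24 against 9 months with the block (0.029). The cause was not tested. Every count of members called stayed within 1.5 times the reported one without the 2 libraries of high mitochondrial share. Over 83 mice 8 of 9 relations of Hspa1a with members passed, 9 over the 67 mice and 8 over these with the muscle and epithelium scores removed. The share of all tested genes that pass with Hspa1a is not given beside these counts. With about 16 mice an age and the spread of Hspa1a and Hspa1b, single contrasts carried an SE near 0.36, which limits what they can show.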

Other observations

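Some genes outside the 10 chaperones, chosen after their values were seen, moved strongly over the same ages. Hspa5, the HSP70 of the endoplasmic reticulum, fell between 15 and 28 months (-0.67 ± 0.10 SE, adjusted p = 1.24e-07) and along age (-0.25 ± 0.05 per 10 months, adjusted p = 1.74e-05, both by edgeR's quasi-likelihood test). Cirbp and Rbm3, genes for RNA-binding proteins known to be induced by mild cold, rose between the same ages by 0.86 ± 0.10 (adjusted p = 1.74e-10) and 0.47 ± 0.07 (adjusted p = 1.60e-07). Between mice of 1 age and batch, over the 67 mice of 9 to 28 months, Hspa1a correlated with Rbm3 at r = -0.55 and with Cirbp at r = -0.53, given as a description since the genes were picked for their values.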
